A study of Mus musculus with 4 samples.

Results

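The genes described here build the electrical side of the mouse heart: the connexins Gja1, Gja5, Gja3 and Gjc1, the sodium channel beta subunit Scn4b, and the pacemaker channels Hcn2 and Hcn4. A probe was taken when the array files named it by a RefSeq or Ensembl transcript of 1 of these genes, which gave 9 probes for 7 genes, out of 55681 probes and 21659 genes matched by transcript. Gja5 and Hcn2 had 2 probes each, and Gja1 had 1 probe printed as 10 spots.

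The study screened hearts under pressure overload from transverse aortic constriction (TAC), a surgical narrowing of the aorta, against sham surgery, at 2 weeks for the hypertrophic response and at 8 weeks for the heart failure phase. Its 4 one-colour Agilent arrays held 1 sample of each kind: sham_2W and TAC_2W, labelled with an age of 10 weeks, and sham_8W and TAC_8W, labelled with an age of 16 weeks. All were of total RNA from hearts of male mice, C57BL/6J by the study's methods, which also give an older age at surgery than these labels allow. Every array held a pool of RNA from several mice, so the files hold no spread between mice, no test across arrays was run and no difference below has a replicate check.

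An action potential passes from one heart muscle cell to the next through gap junctions, channels made of connexins that sit mainly in the intercalated discs. Sodium channels carry the fast upstroke of the action potential in working muscle, and their beta subunits tune gating and placement at the membrane. HCN channels open on hyperpolarization and carry the funny current, which drives the pacemaker depolarization of the sinoatrial node.

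Promoter sequence (RefSeq, GRCm38.p6, 250 bases before to 50 bases after the annotated start) was listed for 6 of the 7 genes. The 4 genes printed below are those with the largest TAC changes on any probe among the members measured above background. Hcn2 is among them only through the dimmer of its 2 probes (log2 change -0.61 at 8 weeks). Its brighter probe changed by 0.08 at 2 weeks and -0.04 at 8 weeks. The 4 genes are shown so that the changes can be read beside the sequence next to the start. Capitals mark matches to the AP-1 motif TGAGTCA, the MEF2 consensus and the GC box GGGCGG. The TATA box TATAAA was searched in addition, and so was the NKX2-5 core. All 5 were searched on both strands.
Gja1 promoter, chr10:56377050-56377349, plus strand: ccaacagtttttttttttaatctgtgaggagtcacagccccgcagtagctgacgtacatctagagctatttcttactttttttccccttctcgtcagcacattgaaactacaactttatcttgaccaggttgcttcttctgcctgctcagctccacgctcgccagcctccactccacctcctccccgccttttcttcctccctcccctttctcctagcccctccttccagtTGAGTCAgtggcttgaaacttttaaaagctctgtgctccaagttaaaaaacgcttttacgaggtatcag
Gja3 promoter, chr14:57057981-57058280, minus strand: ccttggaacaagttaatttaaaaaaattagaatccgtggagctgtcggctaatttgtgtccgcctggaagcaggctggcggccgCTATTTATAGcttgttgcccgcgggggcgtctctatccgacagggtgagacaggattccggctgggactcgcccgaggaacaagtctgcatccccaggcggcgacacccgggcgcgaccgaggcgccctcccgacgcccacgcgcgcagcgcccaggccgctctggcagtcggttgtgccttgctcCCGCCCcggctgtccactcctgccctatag
Scn4b promoter, chr9:45138374-45138673, plus strand: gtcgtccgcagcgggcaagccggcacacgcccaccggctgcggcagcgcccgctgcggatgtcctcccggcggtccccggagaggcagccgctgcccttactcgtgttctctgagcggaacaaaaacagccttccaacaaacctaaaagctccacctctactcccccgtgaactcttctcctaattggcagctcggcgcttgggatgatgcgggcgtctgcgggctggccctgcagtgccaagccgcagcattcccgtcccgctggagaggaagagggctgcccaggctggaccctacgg
Hcn2 promoter, chr10:79716384-79716683, plus strand: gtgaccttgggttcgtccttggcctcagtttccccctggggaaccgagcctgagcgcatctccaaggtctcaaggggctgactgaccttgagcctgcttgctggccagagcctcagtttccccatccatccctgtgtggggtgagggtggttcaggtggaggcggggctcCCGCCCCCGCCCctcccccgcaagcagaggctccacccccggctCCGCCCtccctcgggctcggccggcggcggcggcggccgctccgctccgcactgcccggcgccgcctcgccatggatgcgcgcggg

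The Gja1 window held TGAGTCA beginning 19 bases upstream of the start, letters found in 5.20% of all 32851 promoters of this length. The Gja3 window held a MEF2 match beginning 166 bases upstream, and 3.19% of promoters hold one. TATAAA on the reverse strand lies within that match and occurs in 13.6% of promoters. It also held 1 GC box after the start, on the reverse strand. The Hcn2 window held 3 GC boxes on the reverse strand, beginning 80, 74 and 36 bases upstream, letters found in 35.7% of promoters. None of the 5 searched motifs was in the Scn4b window, and the NKX2-5 core, present in 11.5% of promoters, was in no member window. The GC content was 47.7% for Gja1, 63.3% for Gja3, 66.3% for Scn4b and 72.3% for Hcn2, beside a median of 52.7% over all promoters. These matches describe letters only, and binding was not measured.

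Values below are processed signals (background-corrected spot intensities), and a level is the log2 signal minus the log2 of the array's 75th percentile, which was 206.5 on sham_2W, 206.0 on TAC_2W, 221.2 on sham_8W and 248.5 on TAC_8W. A change is a difference of 2 levels. The spot error given after ± is the error that repeat spots of a probe give such a difference. For probes with 1 spot it was taken from the 40 repeat-spot probes of closest signal, and it holds no variation between mice. Genes of the hypertrophic response served as a check of the labels: Nppa, Nppb, Myh7, Acta1 and Ankrd1 were all over 2-fold higher after TAC at both times, with a median log2 change of 1.84 at 2 weeks and 2.65 at 8 weeks.

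No member probe passed 2-fold in any comparison. At 2 weeks 0 of 9 member probes were over 2-fold higher after TAC and 0 lower, beside 1.89% and 1.0% of all probes. At 8 weeks 0 were higher and 0 lower, beside 1.89% and 1.77%, and between the sham arrays 0 and 0, beside 1.49% (higher at 8 weeks) and 0.853% (lower). Past 1.5-fold there was 1 member probe, the dimmer Hcn2 probe, lower after TAC at 8 weeks, beside 4.52% of all probes. In the other directions 0 member probes passed 1.5-fold, beside 4.12% of all probes higher at 8 weeks, 4.57% higher and 2.62% lower at 2 weeks, and 3.05% higher and 2.02% lower between the sham arrays. These shares are small, and the counts over 9 probes lie near them. With 1 probe per gene, that of the higher mean signal, the members had a median log2 change of -0.31 at 2 weeks and -0.23 at 8 weeks, beside -0.05 and -0.08 over all 21659 genes. Without Hcn4, which was below background, the medians of the other 6 were -0.12 and -0.14. All these medians use the brighter Hcn2 probe, and the dimmer Hcn2 probe changed by -0.24 at 2 weeks and -0.61 at 8 weeks. The sham arrays differed by a member median of 0.15 (8 weeks over 2 weeks), beside -0.01 over all genes.

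**Figure D1:**
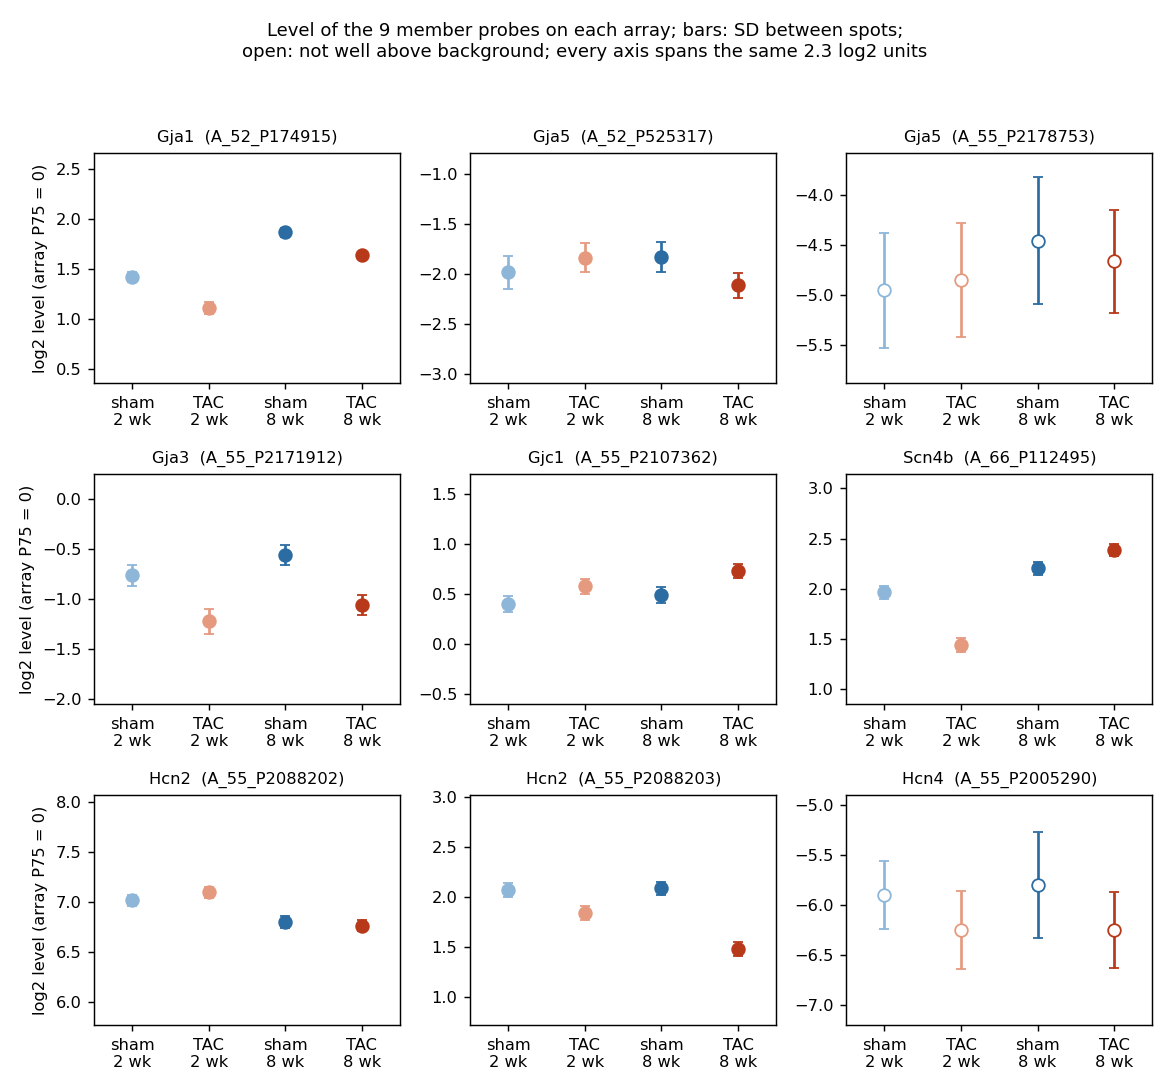
Log2 level of each member probe (y axis, array 75th percentile at 0) on the 4 arrays (x axis). Bars are the SD between spots and open circles mark the 2 probes below background on every array. Gja3 was lower after TAC at both times, Scn4b was lower at 2 weeks and higher at 8 weeks, and the 2 Hcn2 probes differed in shape.

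Gja1 encodes Cx43, the main gap junction protein of working ventricular muscle. Its processed signal was 553.0 on sham_2W, 445.4 on TAC_2W, 807.4 on sham_8W and 772.3 on TAC_8W. The log2 change after TAC was -0.31 ± 0.02 at 2 weeks (1.24-fold lower) and -0.23 ± 0.02 at 8 weeks (1.17-fold lower). Gja1 was the member with the smallest spot error, and both changes were more than 10 times that error. It is the error of a mean over 9 or 10 spots, whereas the other members have 1 spot per probe. For single spots the Gja1 error was 0.076 at 2 weeks and 0.058 at 8 weeks. Beside all 29262 probes above background on every array the Gja1 changes were modest. Of those probes, 10.7% were at least that far lower at 2 weeks and 22.1% at 8 weeks.

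The larger Gja1 difference was between the sham arrays, with 8 weeks higher than 2 weeks by 0.45 ± 0.02 (1.36-fold), which 3.44% of the probes equalled or passed. The order of the levels was sham_8W, TAC_8W, sham_2W and TAC_2W, and each step was over 2 spot errors. The level of Gja1 on TAC_8W therefore lay above that on sham_2W, while each TAC array lay below the sham array of its own time. Time after surgery, age and other variation between the pools cannot be told apart in the sham difference.

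The repeat spots show how far the Gja1 steps stood above print and scan noise. On sham_2W the 10 spots lay between 529.4 and 594.0, with a median of 550.9. On TAC_2W they lay between 417.5 and 470.9, with a median of 443.6, so no spot of one array reached the other. At 8 weeks the 9 spots not marked as outliers lay between 766.9 and 858.0 on sham_8W and between 736.7 and 795.2 on TAC_8W. These signals overlapped, whereas the levels after scaling did not, at 1.79 to 1.96 against 1.57 to 1.68. The Gja1 change at 8 weeks thus leaned on the scaling: it was -0.14 with the array median in place of the 75th percentile and -0.064 with no scaling. Without scaling the median of all probes above background moved from -0.04 to 0.13 at 8 weeks. Relative to that median Gja1 was at -0.20 under all 3 scalings, which differ only by a constant per array.

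**Figure D2:**
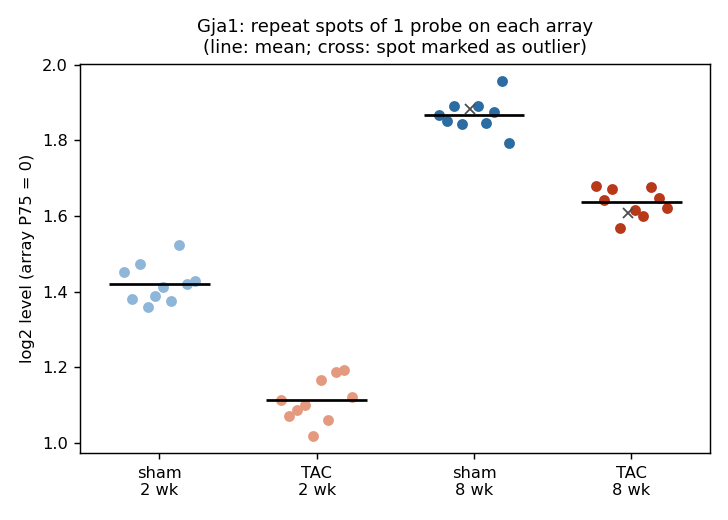
Log2 level of each repeat spot of the Gja1 probe (y axis, array 75th percentile at 0) by array (x axis). The line is the mean and a cross is a spot marked as an outlier. The 4 arrays do not overlap after scaling, and both 8 week arrays lie above both 2 week arrays.

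Gja5 encodes Cx40, the gap junction protein of atrial muscle, the His-Purkinje system and arterial endothelium. Its brighter probe (A_52_P525317) had a processed signal of 52.2 on sham_2W, 57.7 on TAC_2W, 62.1 on sham_8W and 57.4 on TAC_8W. The log2 change after TAC was 0.15 ± 0.22 at 2 weeks and -0.28 ± 0.20 at 8 weeks, and the sham arrays differed by 0.15 ± 0.22. No neighbours in the order of its 4 levels were more than 2 spot errors apart, so no difference in Gja5 was detectable at this signal. The other Gja5 probe (A_55_P2178753), at 6.65 to 10.1, was not well above background on any array. On GRCm38 the gene overlaps the antisense lncRNA 4930573H18Rik, for which no probe was matched.

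Gja3 encodes Cx46, best known from the lens. Its processed signal was 121.7 on sham_2W, 88.6 on TAC_2W, 150.2 on sham_8W and 119.3 on TAC_8W. The log2 change after TAC was -0.46 ± 0.16 at 2 weeks (1.37-fold lower) and -0.50 ± 0.14 at 8 weeks (1.41-fold lower). By value Gja3 was the connexin with the largest decrease at both times, and 5.18% and 6.53% of probes were at least as far lower. This rank was not resolved by the spot error, with Gja1 at -0.31 ± 0.02 at 2 weeks and Gja5 at -0.28 ± 0.20 at 8 weeks. The sham arrays differed in Gja3 by 0.20 ± 0.14, within 2 spot errors, and both sham levels lay above both TAC levels. The step between sham_2W and TAC_8W, at 0.30 ± 0.14, was the only one in the order of levels over 2 spot errors. Under normexp background correction the Gja3 change was smaller, at -0.20 at 2 weeks and -0.30 at 8 weeks, and at 2 weeks Gja1 was then further down, at -0.28.

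Gjc1 encodes Cx45, which is found in the nodes and early in heart development. Its processed signal was 272.4 on sham_2W, 306.7 on TAC_2W, 309.8 on sham_8W and 412.5 on TAC_8W. The log2 change after TAC was 0.17 ± 0.11 at 2 weeks and 0.25 ± 0.11 at 8 weeks, the latter 1.19-fold higher. Gjc1 was the only connexin member above background with a positive change at both times. Its sham arrays differed by 0.09 ± 0.11. The change at 8 weeks was 2.33 times its spot error, although no neighbouring levels in the order were over 2 spot errors apart. With no scaling the change at 8 weeks was 0.41.

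Markers of the cell types that hold these connexins differed among the arrays too. In RNA of heart tissue, fewer cells of a type and less RNA per cell cannot be told apart. The sample titles name the heart only, so how much atrial tissue each pool held is not known. All 8 ventricular muscle markers were above background on every array, with a median log2 change of -0.20 at 2 weeks and -0.17 at 8 weeks, and their summed signal in units of the 75th percentile was 7097 on sham_2W, 6642 on TAC_2W, 6777 on sham_8W and 5973 on TAC_8W. The lower sum on TAC_8W leaned on the scaling, as the 75th percentile was 221.2 on sham_8W and 248.5 on TAC_8W. Before scaling, Myl2, Tnnt2, Actc1 and Irx4 had a higher signal on TAC_8W than on sham_8W, and Myh6, Tnni3, Ryr2 and Pln a lower signal. All 8 fibroblast markers were above background as well. Their summed signal was 207.7 and 287.4 at 2 weeks and 232.3 and 338.7 at 8 weeks (sham, then TAC), with medians of 0.89 and 0.85. The atrial list had all 8 markers above background on TAC_2W, 7 on sham_8W, 6 on sham_2W and 5 on TAC_8W. Myl7, the atrial myosin light chain, was at least 3.64-fold lower after TAC at 8 weeks and at least 2.84-fold higher on sham_8W than on sham_2W. The atrial list did not move one way: at 8 weeks Dkk3 and Kcna5 were higher after TAC (1.17 and 0.41), Sln and Kcnj3 lower, and the median was -0.60 over all 8 markers and 0.026 over the 5 above background on every array. The part of these marker differences in the connexin values was not tested.

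Scn4b encodes the beta 4 subunit of the cardiac sodium channel. Its processed signal was 804.8 on sham_2W, 557.8 on TAC_2W, 1019 on sham_8W and 1295 on TAC_8W, so TAC_2W was the lowest array and TAC_8W the highest. The log2 change after TAC was -0.53 ± 0.10 at 2 weeks (1.44-fold lower) and 0.18 ± 0.09 at 8 weeks (1.13-fold higher). At 2 weeks 3.78% of probes were at least as far lower, and at 8 weeks 21.0% were at least as high. The change at 8 weeks exceeded that at 2 weeks by 0.70 ± 0.13, a difference between pools that could not be tested. The sham arrays differed by 0.24 ± 0.10, of the same size as the 8 week change. In the order of levels, TAC_8W and sham_8W were not over 2 spot errors apart, and the other 2 steps were. The direction of both Scn4b changes was the same under all 7 alternatives, between -0.57 and -0.49 at 2 weeks and between 0.16 and 0.35 at 8 weeks. Of these, the deposited series table (the same signal times a constant) and the mean over probes (Scn4b has 1) were bound to give nearly the same value.

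Hcn2 encodes the pacemaker channel subunit that is also present in ventricular muscle, and its 2 probes gave different values. The brighter probe (A_55_P2088202) had a processed signal of 26763 on sham_2W, 28207 on TAC_2W, 24704 on sham_8W and 26992 on TAC_8W. It changed by 0.08 ± 0.08 at 2 weeks and by -0.04 ± 0.08 at 8 weeks (log2), the latter 0.13 with no scaling and 0.047 with the array median. On this probe the sham arrays differed more, by -0.22 ± 0.08. The dimmer probe (A_55_P2088203) had 867.4 on sham_2W, 735.3 on TAC_2W, 938.0 on sham_8W and 692.6 on TAC_8W. Its log2 change was -0.24 ± 0.10 at 2 weeks (1.18-fold lower) and -0.61 ± 0.10 at 8 weeks (1.52-fold lower), and its sham arrays differed by 0.01 ± 0.10. On the dimmer probe both TAC arrays lay below both sham arrays, and the 8 week change was one that 4.16% of probes equalled or passed.

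Which transcripts each probe detects is not given in the files, so whether both probes read Hcn2 alone could not be checked. The cause of the disagreement, in signal and in change, was not tested. Averaged over both probes, Hcn2 changed by -0.078 at 2 weeks and -0.32 at 8 weeks. On GRCm38 the gene ends 16 bases from Polrmt, the mitochondrial RNA polymerase, which lies on the opposite strand and changed by -0.02 at 2 weeks and -0.24 at 8 weeks.

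Hcn4 encodes the main pacemaker channel of the sinoatrial node. Its probe had a processed signal of 3.45 on sham_2W, 2.71 on TAC_2W, 3.97 on sham_8W and 3.26 on TAC_8W, not well above background on any array, and no fold change is given. Of the 9 conduction system markers, Shox2 and Isl1 were above background on no array, while Cntn2, Tbx3, Gjd3, Cpne5, Etv1 and Slit2 were above it on all 4. The list had a summed signal of 10.7 and 9.92 at 2 weeks and 12.0 and 9.32 at 8 weeks (sham, then TAC, in units of the 75th percentile). Hcn4 could therefore not be followed here, and the nodal markers Shox2 and Isl1 could not either.

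**Figure D3:**
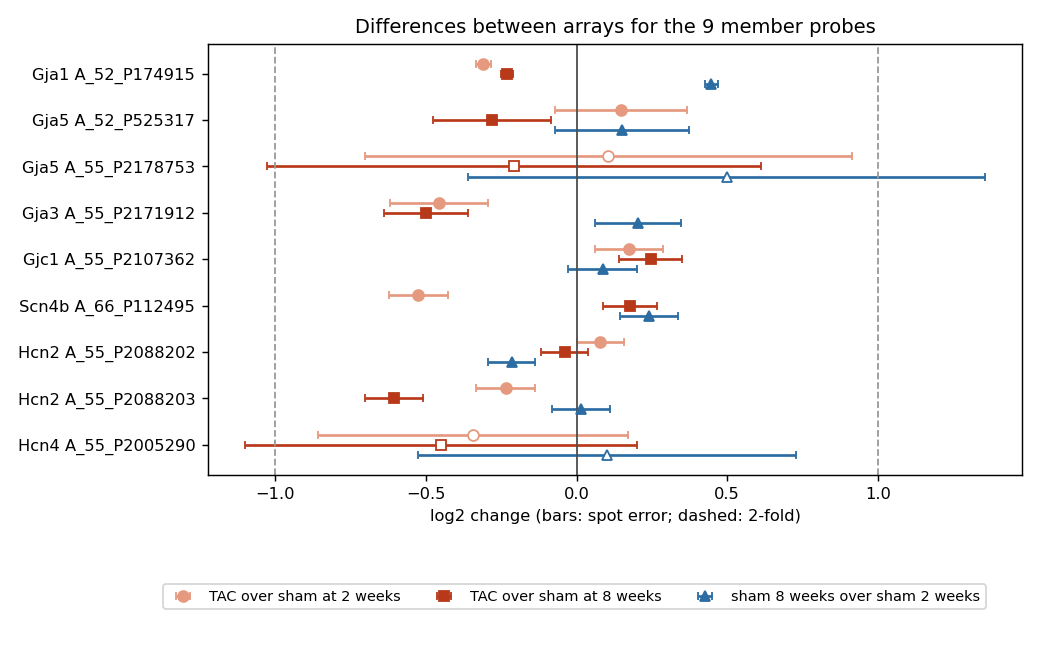
Log2 change of the 9 member probes (rows) for TAC over sham at 2 weeks, at 8 weeks and for sham at 8 weeks over sham at 2 weeks (x axis). Bars are the spot error, open symbols mark probes below background, and dashed lines mark 2-fold. No symbol passes 2-fold, and Scn4b is the member above background whose TAC changes lie on opposite sides of 0 by more than their bars. Its change at 8 weeks is not over 2 spot errors.

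Scn4b, Gja3 and the dimmer Hcn2 probe were the members above background that changed by more than 0.5 at 2 or 8 weeks, and the genes closest to each were sought among 14246 genes measured on all 4 arrays, by the distance over the 2 TAC changes and the sham difference. The TAC changes share their sham arrays with the sham difference, and 4 arrays give few values, so close matches are a description. Gja3 was closest to Nmnat3, Dipk1a and Aldh2, each at a distance of 0.04. The dimmer Hcn2 probe was closest to Rgs6 (0.03), Gata6 (0.05) and Krtap4-9 (0.06). Scn4b had more distant neighbours, Ccdc159 (0.12), Dnajb1 (0.18) and Zfp248 (0.19).

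The other genes of the same systems give the setting of the members. All 16 other connexins had a probe, and 10 of them were above background on no array. None passed 1.5-fold in either direction at either time, and the median log2 change was -0.20 at 2 weeks and -0.14 at 8 weeks over all 16, or 0.01 and -0.04 over the 6 above background. Gja4 (Cx37), the arterial endothelial partner of Gja5, had a processed signal of 587.0 on sham_2W, 718.1 on TAC_2W, 585.3 on sham_8W and 726.1 on TAC_8W. Its changes were 0.29 ± 0.09 and 0.14 ± 0.09. The 8 arterial endothelial markers, which include Gja4, were above background on every array and had medians of 0.29 at 2 weeks and -0.04 at 8 weeks. Their summed signal was 13.6 and 16.1 at 2 weeks and 14.6 and 16.1 at 8 weeks (sham, then TAC).

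Of 16 sodium channel subunits and partners, 15 had a probe, and the list medians were 0.04 at 2 weeks and 0.06 at 8 weeks. Past 1.5-fold, 0 were higher and 2 lower at 2 weeks, and 2 were higher and 1 lower at 8 weeks. Scn10a, a sodium channel best known from sensory neurons, had a processed signal of 170.8 on sham_2W, 94.3 on TAC_2W, 258.9 on sham_8W and 82.9 on TAC_8W. Its log2 change was -0.85 at 2 weeks and -1.81 at 8 weeks, the only change past 2-fold in this list, and the sham arrays differed by 0.50. Fgf13, an intracellular channel partner, changed by -0.65 and -0.18.

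Scn2b encodes another beta subunit. Its probe was well above background on the 2 TAC arrays alone, and its log2 changes, 0.27 ± 0.63 at 2 weeks and 0.63 ± 0.63 at 8 weeks, were within the spot error. Scn2b lies next to Scn4b on the same strand, 8553 bases away on GRCm38. Scn3b had no matched probe.

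Among 7 other pacemaker genes, 3 were above background on every array and 2 on none. Hcn3 was above background on no array. The T-type calcium channels Cacna1g and Cacna1h changed by -0.19 and 0.06 at 2 weeks and by -0.24 and 0.10 at 8 weeks.

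The intercalated disc, where Gja1 sits, had all 15 listed genes above background on every array, with medians of 0.02 at 2 weeks and -0.05 at 8 weeks. Past 1.5-fold, 2 were higher and 0 lower at 2 weeks, and 3 were higher and 1 lower at 8 weeks. Xirp2, an actin-binding repeat protein of the disc, went from 992.4 on sham_2W to 2676 on TAC_2W and from 1181 on sham_8W to 4896 on TAC_8W, log2 changes of 1.43 and 1.88. Nrap, an anchoring protein for actin filaments, changed by 0.59 and 0.94, and Xirp1 by 0.18 and 0.75. The desmosomal cadherin Dsg2 changed by -0.49 and -0.68.

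Of 15 transcription factors of the conduction system, 13 were above background on every array. The medians were -0.21 at 2 weeks and -0.20 at 8 weeks over all 15, and -0.21 and -0.12 over the 13. Past 1.5-fold, 0 were higher and 2 lower at each time, and both times the 2 were Tbx5 and Hopx. Tbx5, which activates Gja5 in the developing heart, had a processed signal of 1020 on sham_2W, 622.1 on TAC_2W, 906.2 on sham_8W and 535.2 on TAC_8W, log2 changes of -0.71 and -0.93. Hopx, a homeodomain protein of the conduction system that binds no DNA itself, changed by -0.61 and -0.66. Nkx2-5, the cardiac homeobox factor, changed by -0.08 and -0.10.

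**Figure D4:**
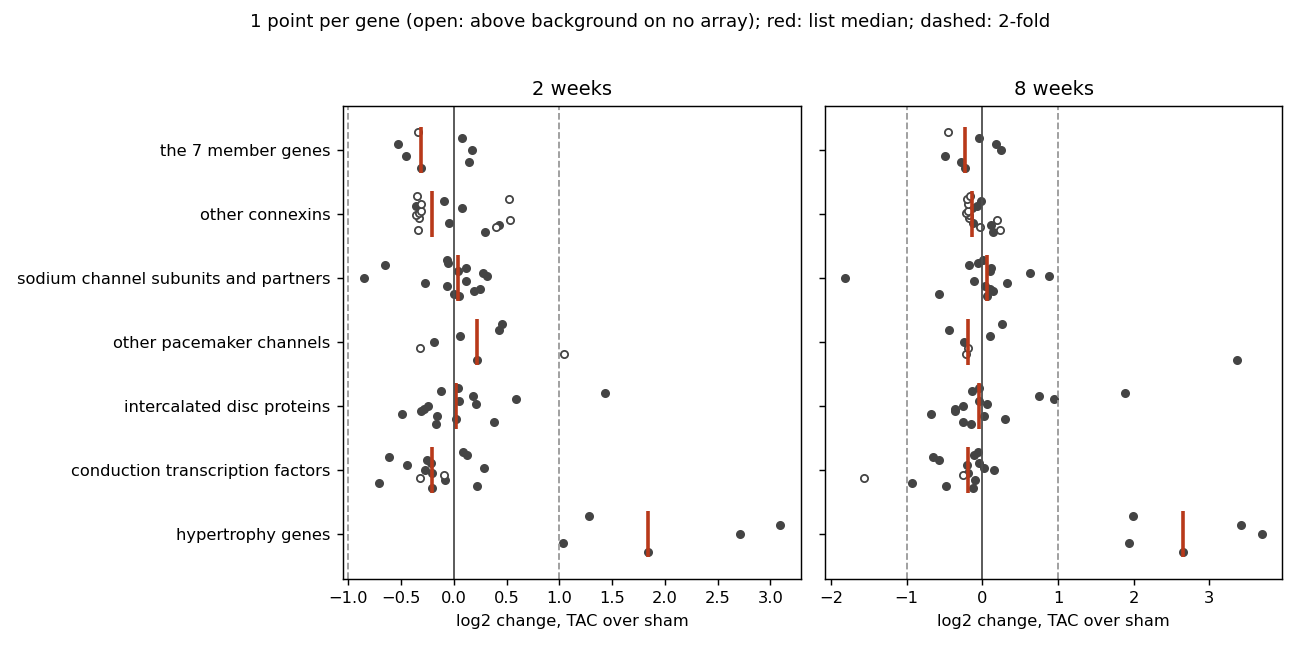
Log2 change of each gene, TAC over sham (x axis), at 2 weeks (left) and 8 weeks (right), for the members, the related gene lists and the hypertrophy genes (rows). Points are genes, open where above background on no array, red lines are list medians and dashed lines mark 2-fold. The members, the connexins and the transcription factors lie near or below 0, and all 5 hypertrophy genes lie past 2-fold at both times.

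**Figure D5:**
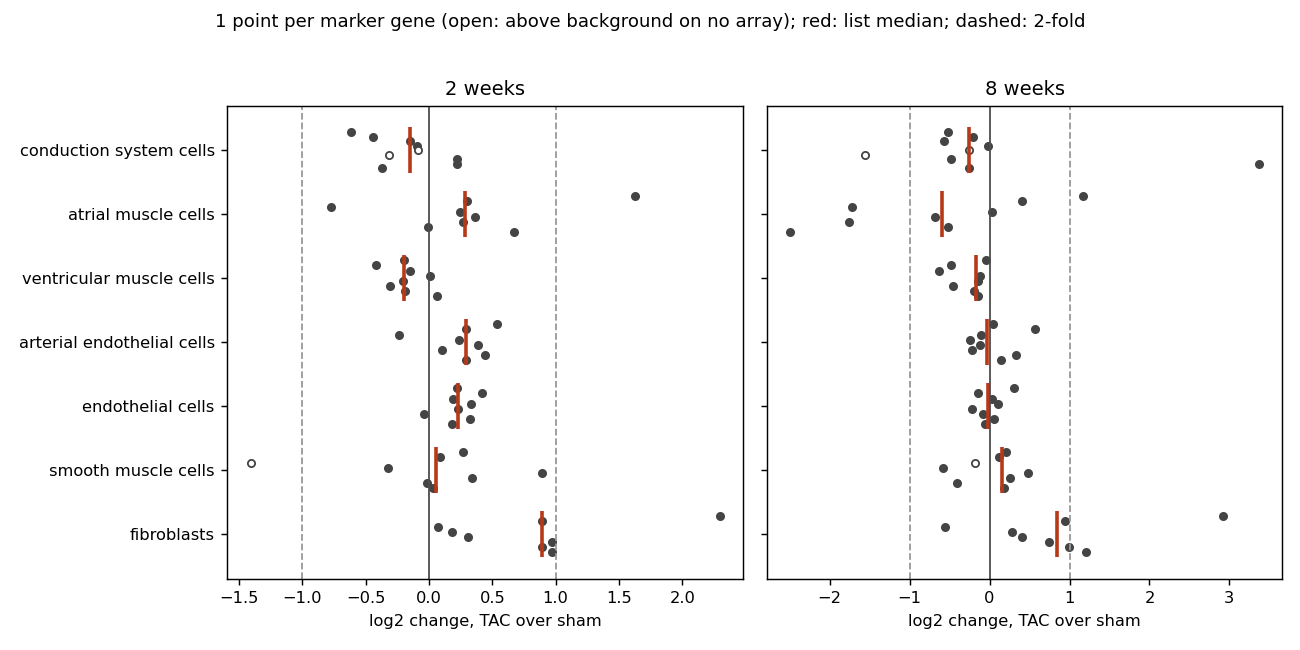
Log2 change of each cell type marker, TAC over sham (x axis), at 2 weeks (left) and 8 weeks (right), for 7 lists (rows), with symbols as in the plot of gene lists. The fibroblast list has medians of 0.89 and 0.85, and the atrial list runs from -2.49 to 1.17 at 8 weeks. The endothelial list has medians of 0.23 and -0.01, and the smooth muscle list 0.06 and 0.15.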

How the data were processed

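Total RNA of pooled hearts was hybridized to 4 Agilent SurePrint G3 mouse arrays, 1 per group, all on 1 slide scanned together. The deposited scanner intensity used here is the processed signal that the authors obtained with Feature Extraction (10.7.3.1 per the file headers, 9.1 in the submitters' processing notes). It is background-subtracted and not normalized between arrays. The paper names GeneSpring GX and states no normalization. The deposited series table held the same intensity times a constant per array.

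Spots marked as outliers were left out, log2 values of repeat spots were averaged, and the array's 75th percentile over the 55681 non-control probes was subtracted. Between 54.7% and 58.5% of probes per array were well above background, and no spot was saturated. The number of arrays limits the precision. The files hold transcript names but no symbols. Of 32342 probes named by transcript, 29359 were matched through RefSeq and GENCODE tables of GRCm38, and no coordinate was converted from mm9, the build of the array. A probe counted as past a fold if the brighter array had it well above background. A bound ("at least") sets the brighter array against the dim signal or the lowest level that passes as well above background, whichever is higher. For genes with several probes, the one with the highest mean signal was used.

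The members, gene lists and rules were chosen with earlier results of these data known. Named were all members, Gja4, Hcn3, the hypertrophy genes, list genes past 1.5-fold the same way at both times, and the 3 nearest genes by pattern. Other genes named, the promoters and the motifs were chosen after their values were seen. Of the genes that the rule selects, the fibroblast genes Col1a1, Col1a2, Col3a1, Lum and Postn and the atrial genes Kcnj3 and Dkk3 are given under other observations, and some genes that it selects are not reported here. The alternatives were quantile normalization, the array median, no normalization, normexp (offset 50, limma 3.58.1, R 4.3.3), the deposited series table, outlier spots kept, the mean over probes of a gene, other filters on dim probes and limits of 1.5-fold and 3-fold. The calls and distances were tested on simulated data with planted changes larger than any member change, so that test does not cover changes of the members' size. Python 3.11.15, pandas 2.3.3, numpy 2.4.6 and matplotlib 3.10.9 were used.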

Additional observations from a re-analysis of the deposited data

Results flagged for a closer look

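Scn4b was the member whose change after TAC took opposite directions at the 2 times by more than the spot error at each. Its level was lower than sham at 2 weeks (-0.53 ± 0.10) and higher at 8 weeks (0.18 ± 0.09), so that the change at 8 weeks minus the change at 2 weeks was 0.70 ± 0.13 on the log2 scale. The error is that between spots of a probe. The change at 8 weeks was not over 2 spot errors, and the sham arrays differed in Scn4b by 0.24 ± 0.10. With 1 pool per group the difference was not tested.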

How the results depend on the processing

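Each of the 21 member changes was recomputed under 7 alternatives. Of these, the deposited series table, outlier spots kept and quantile normalization moved none by more than the spot error (for Gja1, that of single spots, 0.058 to 0.076). The deposited series table is the same signal times a constant per array, so its changes were bound to be nearly the same. Keeping outlier spots can reach a member with 1 spot only through the scaling, and the mean over probes leaves a gene with 1 probe as it was. Against the smaller error of its spot mean, Gja1 also moved with normexp correction (-0.28 at 2 weeks, -0.20 at 8 weeks and 0.40 between the sham arrays) and with the array median (-0.35 at 2 weeks and 0.42 between the sham arrays). With no normalization between arrays 8 moved: at 8 weeks Gja1 was -0.064, Gja3 -0.33, Gjc1 0.41, Scn4b 0.35 and Hcn2 0.13, and between the sham arrays Gja1 was 0.55, Scn4b 0.34 and Hcn2 -0.12. By its construction this setting keeps the difference in overall brightness between arrays. With the array median, Gja1 was -0.14 and Hcn2 0.047 at 8 weeks. With normexp correction, Gja3 was -0.20 at 2 weeks and -0.30 at 8 weeks, and the sham difference of Gjc1 was -0.032. With the mean over its probes, Hcn2 was -0.078 at 2 weeks, -0.32 at 8 weeks and -0.10 between the sham arrays. At a 1.5-fold limit 1 member probe was called at 8 weeks.

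Of the list medians, normexp moved that of the members at 2 weeks to -0.052, of the other connexins at 2 weeks to -0.020, of the other pacemaker genes to -0.0019 at 2 weeks and -0.0050 at 8 weeks, and of the atrial markers to 0.10 at 2 weeks, -0.33 at 8 weeks and 0.28 between the sham arrays. Quantile normalization gave -0.011 for the other connexins at 2 weeks and 0.00015 for the other pacemaker genes at 8 weeks. Over genes above background on all 4 arrays, the members were at -0.12 and the other connexins at 0.012 at 2 weeks, the other pacemaker genes at 0.10 at 8 weeks and 0.084 between the sham arrays, and the atrial markers at 0.026 at 8 weeks. With the mean over probes, the conduction system markers were at -0.48 at 8 weeks. Apart from the alternatives' own construction, the cause was not tested.

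Leaving out a replicate could not be done with 1 array per group. No paired analysis was possible because each group has 1 array. Signal over background limits Hcn4, the dimmer Gja5 probe and 10 of 16 other connexins.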

Other observations

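Other markers of the tissue also differed between the pools. In the fibroblast list, Postn (log2 change 2.29 at 2 weeks, 2.92 at 8 weeks), Col1a1 (0.97 and 1.20), Col1a2 (0.90 and 0.99), Col3a1 (0.97 and 0.75) and Lum (0.89 and 0.94) were over 1.5-fold higher after TAC at both times, and the sham arrays differed for these 5 genes by -0.13 to 0.12. The other 3 genes of the list did not pass 1.5-fold: Pdgfra (0.31 and 0.40), Dcn (0.18 and 0.28) and Tcf21, which was lower at 8 weeks (0.07 and -0.55).

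In the atrial list, Kcnj3, a subunit of the acetylcholine-activated potassium channel, was lower after TAC on the probe with the higher mean signal (-0.78 at 2 weeks and -1.72 at 8 weeks) and on the other probe (-0.76 and -1.06). The sham difference of Kcnj3 depended on the probe, at 1.04 on the first and 0.05 on the second. Dkk3, a secreted protein of the Dickkopf family, was higher after TAC (1.63 and 1.17), and it was higher on sham_8W than on sham_2W by 1.27. Myl7 and Sln, which mark atrial muscle, were below background on TAC_8W, and on sham_8W their processed signals were 37.7 and 26.5.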
